A study of Chlorocebus sabaeus with 10 samples.

Results

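Hepatocytes take up bile acids, bilirubin and many drugs from blood across the basolateral membrane and export them across the canalicular membrane into bile. Carriers of the SLCO and SLC10 families bring these anions in, and ATP-driven pumps of the ABCB and ABCC families move them out. The balance of uptake and export sets the bile acid load of the cell, and the pumps at the canaliculus drive bile flow. Transcripts of 9 such transporters were looked up by gene symbol in the liver RNA-Seq of vervet monkeys fed a high fructose (HFr) or a chow diet, and 7 of the 9 symbols had a row, among 28078 transcripts in all. These were the uptake carriers SLCO1B1, SLCO2B1 and SLC10A1, the canalicular pumps ABCB11, ABCB1 and ABCC2, and ABCC3. ABCC3 is known as a basolateral pump that returns conjugates to blood, so it is listed here apart from the canalicular group. SLCO1B3 and ABCB4 were not analysed here, since no row carried those symbols.

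The liver samples came from 10 female Chlorocebus sabaeus, 5 on the HFr diet and 5 on chow for 6 weeks, all of which had eaten chow before, and each animal gave 1 library of polyadenylated RNA. The tables hold total estimated counts of 2977282 to 4992505 per animal, of which 864571 to 2657103 were on nuclear transcripts, because mitochondrial transcripts took 34.7% to 73.6%. The hepatocyte identity of the tissue was clear in every library, with 10 of 10 hepatocyte markers (ALB, TTR, APOB and others) summing to between 36762 and 79173 normalized counts. A normalized count is the estimated count in CPM, with library sizes scaled by TMM (trimmed mean of M values). In whole liver, fewer cells of a type and less RNA per cell cannot be told apart. Without transcript lengths the counts of different genes are not on 1 scale, and only animals and diets are compared within a gene.

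All 7 transporters with a row had enough counts to be tested. In the quasi-likelihood test of edgeR, 0 of the 7 had an adjusted p under 0.05, and each had an adjusted p of 0.9996 over the 7948 tested transcripts. Over all tested transcripts, 0% passed this threshold. At an unadjusted p under 0.05, the threshold the study used, 1 of the 7 passed, SLCO2B1 in the higher direction, against 4.29% of all tested transcripts (2.06% higher and 2.23% lower). DESeq2 likewise gave 0 of 7 after adjustment, and 2 of 7 at an unadjusted p under 0.05, SLCO2B1 and SLCO1B1. For none of the 7 did the diets separate without overlap, which 0.541% of the tested transcripts did. The log2 fold change fitted by edgeR was above zero for 4 transporters and below it for 3, with a median of 0.18, where 50.2% of all tested transcripts were lower and the median was -0.00075.

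**Figure D1:**
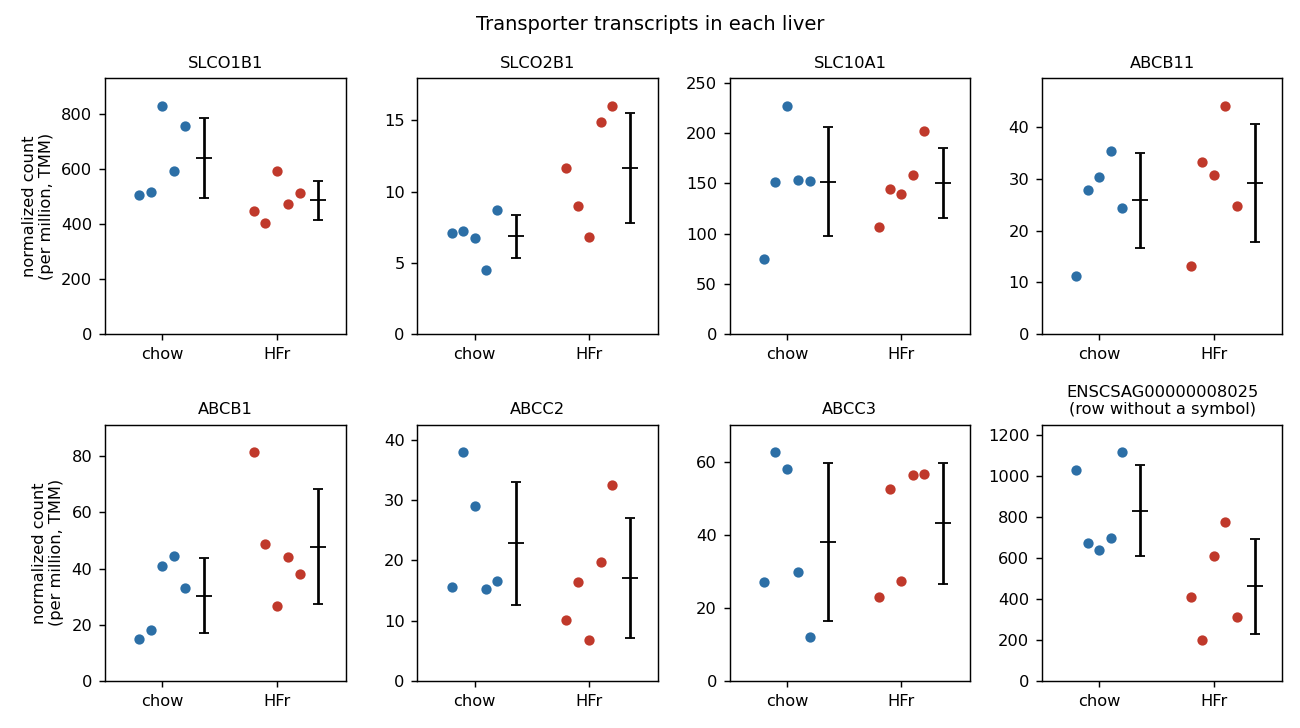
Normalized counts (CPM after TMM scaling, linear axis from 0) of the 7 transporters and of 1 neighbouring row without a symbol, 1 point per animal, with the mean and SD (n = 5) of each diet beside the points. The HFr and chow points overlap in every panel, with SLCO1B1 lower on average on the HFr diet (486 against 639) and SLCO2B1 higher (11.7 against 6.88).

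Among the uptake carriers, SLCO1B1 encodes OATP1B1, a sodium-independent carrier of bile acids, bilirubin conjugates and statins. It lies on chromosome 11 of ChlSab1.1 from 21001655 to 21093278 on the plus strand, and had 1169 to 4514 estimated counts per animal. Its normalized counts were 448, 404, 591, 474 and 511 in HFr replicates 1 to 5 and 505, 516, 828, 591 and 754 in chow replicates 1 to 5. All 5 HFr animals lay below the chow mean, but 2 of them, replicates 3 and 5, reached the chow range. The means were 486 ± 70.8 in the HFr group and 639 ± 145 in the chow group (SD, n = 5 each). The log2 fold change from edgeR was -0.40 (standard error, SE, 0.21, 95% interval -0.84 to 0.05, unadjusted p = 0.0755), and a two-sided exact permutation test of the log2 normalized counts gave p = 0.0714. Leaving out 1 animal moved the log2 fold change between -0.48 and -0.29, and it was -0.29 without chow replicate 3. Normalization by library size alone kept the value at -0.40 and raised the unadjusted p from edgeR to 0.264. In contrast, DESeq2 gave an unadjusted p of 0.0398. A 2-sample test on the deposited normalized values gave a log2 fold change of -0.36 and an unadjusted p of 0.105. The paper reports SLCO1B1 as differentially expressed and lower on the HFr diet in both its transcript and its protein data. Why the transcript calls differ was not tested, and protein was not analysed here.

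SLCO2B1 encodes OATP2B1, which carries steroid sulfates and is made in liver, gut and other tissues. It lies on chromosome 1 from 66376299 to 66433055, with 9 to 81 estimated counts per animal. Normalized counts were 11.7, 8.97, 6.86, 14.9 and 16.0 in HFr replicates 1 to 5 and 7.08, 7.23, 6.79, 4.55 and 8.73 in chow replicates 1 to 5. The HFr animals were higher in 4 of 5 cases than every chow animal, and HFr replicate 3 lay inside the chow range. The means were 11.7 ± 3.86 and 6.88 ± 1.50 (SD, n = 5 each), a fold of 1.71 (95% interval 1.16 to 2.52). The log2 fold change of 0.77 (SE 0.26) had an unadjusted p of 0.0103 and an adjusted p of 0.9996 from edgeR. The two-sided exact permutation test gave p = 0.0476 on the log2 scale, against 0.00794 as the smallest that 5 animals against 5 allow. The unadjusted p from edgeR rose to 0.0799 when only library size was used for normalization, and SLCO2B1 was not tested when at least 10 counts were asked of every animal, because chow replicate 4 had 9.

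SLC10A1 encodes NTCP, the sodium-dependent carrier that takes up most conjugated bile acids. It lies on chromosome 24 from 47017414 to 47033940 on the minus strand, with 283 to 1237 estimated counts per animal. Normalized counts were 107, 145, 140, 158 and 202 in HFr replicates 1 to 5 and 74.5, 151, 227, 153 and 153 in chow replicates 1 to 5. The chow animals held both the lowest value, in replicate 1, and the highest, in replicate 3, so the HFr range lay inside the chow range. The means were 150 ± 34.5 and 152 ± 53.9 (SD, n = 5 each). The log2 fold change was -0.01 (SE 0.26, unadjusted p = 0.962 by edgeR), with a 95% interval from -0.57 to 0.54, or a fold between 0.674 and 1.46. The sign of this value was not stable, as it was 0.18 without chow replicate 3 and -0.19 without chow replicate 1.

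ABCB11, the first of the canalicular pumps, encodes BSEP, the main exporter of bile salts into bile. It lies on chromosome 10 from 54459377 to 54575059 on the minus strand, with 35 to 198 estimated counts per animal. Its normalized counts were 13.2, 33.2, 30.7, 44.0 and 24.7 in HFr replicates 1 to 5 and 11.2, 27.8, 30.3, 35.4 and 24.4 in chow replicates 1 to 5. One animal of each diet was low, replicate 1 in both, and the other values were intermixed. The means were 29.2 ± 11.3 on the HFr diet and 25.8 ± 9.10 on chow (SD, n = 5 each), with a log2 fold change of 0.20 (SE 0.31, 95% interval -0.48 to 0.87, unadjusted p = 0.544 by edgeR). This fell to -0.01 without HFr replicate 4 and to -0.0047 without chow replicate 1.

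ABCB1 encodes P-glycoprotein, an exporter of hydrophobic drugs. The row lies on chromosome 21 from 61322748 to 61529274 on the plus strand, a span of 206527 bases, and 1785 bases separate it from its neighbour CROT. In the RefSeq annotation of another vervet assembly, mChlSab1.0.hap1, ABCB4 lies between ABCB1 and CROT. ABCB4 encodes the pump that brings phosphatidylcholine into bile and is a close relative of ABCB1. Whether the row holds reads of both genes was not tested. It had 66 to 224 estimated counts per animal, and its normalized counts were 81.4, 48.9, 26.6, 44.2 and 38.0 in HFr replicates 1 to 5 and 15.1, 18.2, 41.1, 44.5 and 33.1 in chow replicates 1 to 5. HFr replicates 1 and 2 stood above the chow range, and chow replicates 1 and 2 stood below the HFr range. The means were 47.8 ± 20.5 and 30.4 ± 13.3 (SD, n = 5 each), with a log2 fold change of 0.67 (SE 0.33, 95% interval -0.05 to 1.38, unadjusted p = 0.0643 by edgeR) and p = 0.159 from the two-sided exact permutation test. Without HFr replicate 1 the log2 fold change was 0.39, and without chow replicate 3 or chow replicate 4 it was 0.82, with unadjusted p-values from edgeR of 0.0384 and 0.0348.

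ABCC2 encodes MRP2, the canalicular exporter of bilirubin glucuronides and glutathione conjugates. It lies on chromosome 9 from 92841818 to 92902265, with 17 to 173 estimated counts per animal. Normalized counts were 10.2, 16.4, 6.86, 19.8 and 32.4 in HFr replicates 1 to 5 and 15.5, 37.9, 29.0, 15.2 and 16.5 in chow replicates 1 to 5. The lowest values belonged to HFr replicates 1 and 3, and the highest to chow replicate 2 and HFr replicate 5. The means were 17.1 ± 9.95 and 22.8 ± 10.2 (SD, n = 5 each). The log2 fold change was -0.40 (SE 0.37, 95% interval -1.19 to 0.39, unadjusted p = 0.293 by edgeR). It rested on few animals, being -0.77 without HFr replicate 5 (unadjusted p = 0.0459 by edgeR) and -0.14 without chow replicate 2.

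ABCC3 encodes MRP3, the basolateral pump for bile acids and glucuronides. It lies on chromosome 16 from 42646812 to 42702852 on the minus strand, with 26 to 317 estimated counts per animal. Its normalized counts were 23.0, 52.5, 27.4, 56.4 and 56.8 in HFr replicates 1 to 5 and 27.2, 62.6, 58.1, 29.8 and 11.9 in chow replicates 1 to 5. In both diets some animals stood above 50 and some below 30, with none between. The means were 43.2 ± 16.6 and 37.9 ± 21.6 (SD, n = 5 each), and the log2 fold change was 0.18 (SE 0.38, 95% interval -0.64 to 0.99, unadjusted p = 0.648 by edgeR). Without chow replicate 5, the lowest animal, the value was -0.04.

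**Figure D2:**
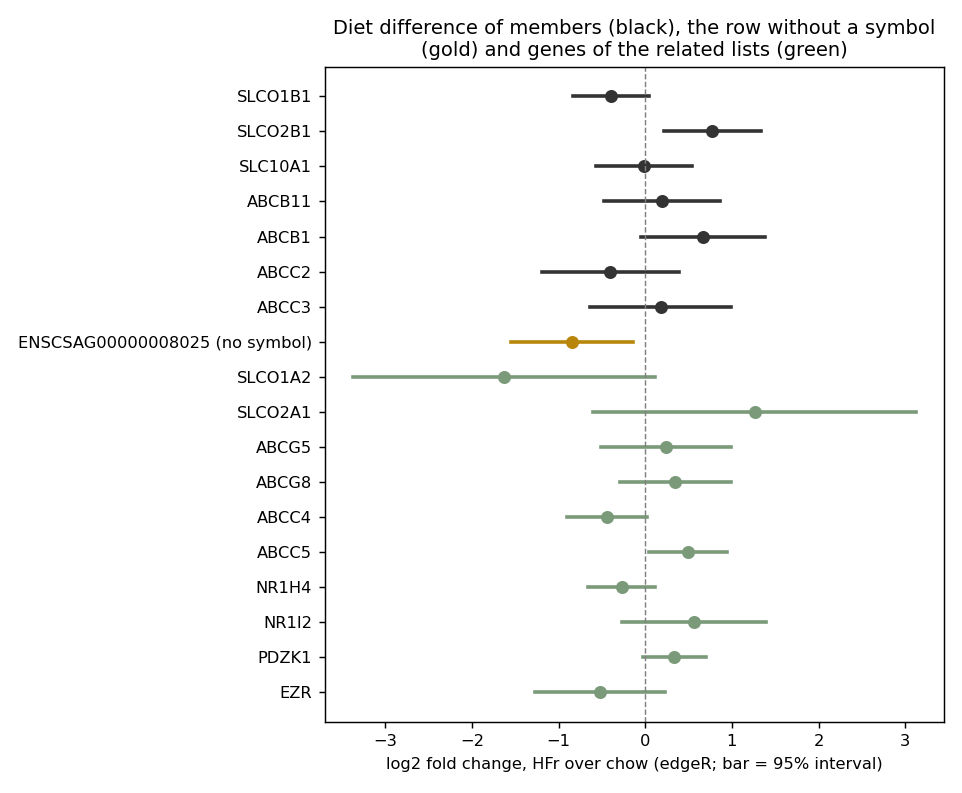
Log2 fold change of HFr over chow from edgeR with its 95% interval, for the 7 transporters (black), the row without a symbol (gold) and the named genes of the related lists (green). Among the 7 transporters the interval of SLCO2B1 alone lies to 1 side of zero, from 0.21 to 1.33.

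The spread between animals differed among the transporters. For SLCO1B1 the coefficient of variation was 14.6% among HFr animals and 22.7% among chow animals, and for ABCC2 it was 58.1% and 44.7%. From the lowest to the highest of the 10 animals, normalized counts spanned 2.05-fold for SLCO1B1, 3.05-fold for SLC10A1, 3.52-fold for SLCO2B1, 3.93-fold for ABCB11, 5.24-fold for ABCC3, 5.40-fold for ABCB1 and 5.52-fold for ABCC2. Chow replicate 1 was the lowest of the 10 animals for SLC10A1, ABCB11 and ABCB1 and was above the median of the 10 for 0 of the 7 transporters. HFr replicate 4 and chow replicate 3 were each above the median for 6 of the 7. Marker transcripts of stellate cells and fibroblasts had counts for 7 of 7 listed. They summed to 668 normalized counts in chow replicate 1 and 511 in chow replicate 5, against 143 to 322 in the other 8 animals. Most of this sum was DCN, with means of 183 on the HFr diet and 246 on chow. Between diets the sum gave p = 0.444 in the two-sided exact permutation test. Of the 5 markers tested, 1 was higher and 4 lower on the HFr diet. Only ACTA2, 1 of these 5, had an unadjusted p under 0.05, as did 4.29% of all tested transcripts. Its log2 fold change was -1.57 (SE 0.49, unadjusted p = 0.00646, adjusted p = 0.9996 by edgeR). Chow replicate 5 was the lowest of the 10 animals for ABCC3 but above the median for 4 of the 7 transporters. As a description over the 10 animals, log2 normalized counts were compared with the log2 sum of the stellate and fibroblast markers. The Pearson correlation was -0.81 for SLC10A1, -0.78 for ABCC3, -0.65 for ABCB11 and -0.55 for ABCC2. For ABCB1, SLCO2B1 and SLCO1B1 it was -0.29, -0.13 and -0.07. With the mitochondrial share of counts it was -0.74 for ABCC3, -0.73 for ABCC2 and -0.30 to 0.20 for the others. Marker sums of 8 cell types were compared, and others also gave large coefficients. SLC10A1 had 0.77 with the hepatocyte sum, ABCB1 0.72 with the macrophage sum and ABCC2 -0.64 with the endothelial sum. SLCO2B1 and SLCO1B1 had -0.60 and 0.55 with the sum for hepatocytes around the central vein. The part of stellate cells and fibroblasts in the transporter values of chow replicates 1 and 5 was not tested.

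ABCC2 and ABCC3 were also lower on average in animals with a high mitochondrial share of the counts, in both diets. The animals were divided at 50% mitochondrial counts after the values were seen, so these ranges are a description. ABCC3 had 52.5 to 62.6 normalized counts in the 4 animals with 34.7% to 44.0% mitochondrial counts (2 HFr and 2 chow), and 11.9 to 56.4 in the 6 animals with 57.1% to 73.6% (3 HFr and 3 chow). ABCC2 had 16.4 to 37.9 in the former and 6.86 to 19.8 in the latter. Mean normalized counts of SLC10A1 and SLCO2B1 were also lower in the latter in both diets. For SLC10A1 they were 173 and 135 on the HFr diet and 189 and 127 on chow. For SLCO2B1 they were 12.5 and 11.1 on the HFr diet and 7.01 and 6.79 on chow. Both gaps of SLCO2B1 lay within the SD of the diet (3.86 and 1.50). Mean normalized counts of SLCO1B1, ABCB1 and ABCB11 were not lower in both diets. The Pearson correlation with the mitochondrial share was -0.30 for SLC10A1 and -0.20 for SLCO2B1, weaker than for ABCC2 (-0.73) and ABCC3 (-0.74). Diet differences within each part are likewise a description, from 2 HFr against 2 chow and 3 against 3 animals. Groups this small cannot show whether a diet difference depends on the mitochondrial share. Within the 4 animals the mean log2 difference of ABCC3 between HFr and chow was -0.14, and within the 6 it was 0.60. For SLCO1B1 these values were -0.52 and -0.28, for SLCO2B1 0.70 and 0.62, for ABCB1 0.63 and 0.68, and for ABCC2 -0.50 and -0.45. The sign differed between the 4 and the 6 animals for SLC10A1, at -0.11 and 0.14, and for ABCB11, at -0.02 and 0.28, as it did for ABCC3. With the mitochondrial percent as a covariate in edgeR, the log2 fold change was 0.31 for ABCC3 and -0.35 for ABCC2, and 0.78 for SLCO2B1.

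**Figure D3:**
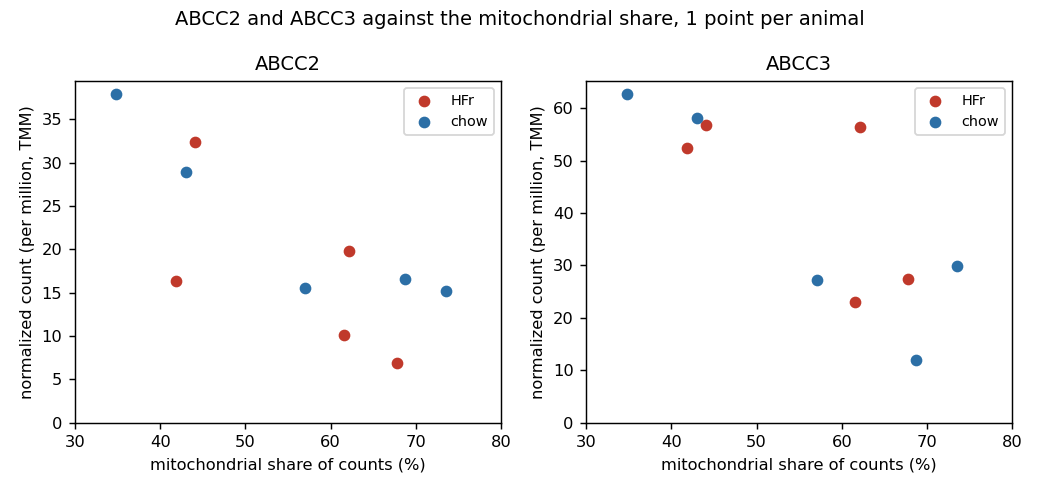
Normalized counts of ABCC2 and ABCC3 (CPM after TMM scaling) against the percent of all estimated counts on mitochondrial transcripts, 1 point per animal, colored by diet. The 4 animals under 50% mitochondrial counts include the highest values of both genes, and each diet has animals on both sides.

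For each transporter the tested transcripts with the most similar profile over the 10 animals were found by the Pearson correlation of log2 normalized counts, among 7170 transcripts of other named genes. This is a description, since the highest of so many coefficients over 10 animals is large by selection. The nearest were ELP3 and TFPI for SLCO1B1 (0.92 and 0.91), STARD3 and CADPS2 for SLCO2B1 (0.90 and 0.89), and TGOLN2 and C8G for SLC10A1 (0.96 and 0.95). FUOM and GAMT were nearest to ABCB11 (0.91 and 0.90), MFSD2A and CCM2 to ABCB1 (0.90 and 0.89), PCDH1 and CAPN3 to ABCC2 (0.97 and 0.92), and GNMT and AGTR1 to ABCC3 (0.98 and 0.96). No gene was shared between these pairs, and none was itself one of the 7 transporters.

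Upstream of SLCO1B1 on chromosome 11, between the rows of SLCO1C1 and SLCO1B7, lies a protein-coding row without a gene symbol, ENSCSAG00000008025, from 20648582 to 20761161. It was singled out after its values were seen, is not counted among the 7, and is given no name here, since the deposited table gives it no symbol. RefSeq places SLCO1B3 between SLCO1C1 and SLCO1B1 in mChlSab1.0.hap1. The row had 890 to 4494 estimated counts per animal. Its normalized counts were 408, 200, 610, 776 and 314 in HFr replicates 1 to 5 and 1027, 674, 639, 698 and 1114 in chow replicates 1 to 5. HFr replicates 1, 2, 3 and 5 lay below all chow animals, and HFr replicate 4 lay inside the chow range. The means were 462 ± 231 and 830 ± 223 (SD, n = 5 each). The log2 fold change was -0.85 (SE 0.33, 95% interval -1.55 to -0.14), with an unadjusted p of 0.0221 and an adjusted p of 0.9996 from edgeR. The two-sided exact permutation test of the log2 normalized counts gave p = 0.0556. SLCO1B7 itself had at most 1 count, in 2 of the animals, and how reads shared by these related genes were divided among their rows was not tested.

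Markers of pericentral hepatocytes, the cells around the central vein, were lower on average on the HFr diet beside SLCO1B1 and its unnamed neighbour. Of the 8 listed, 4 were tested (GLUL, CYP2E1, AXIN2 and OAT), and all 4 had a negative log2 fold change, from -1.03 to -0.13, none with an unadjusted p under 0.05 from edgeR. The summed level of the 7 with counts was 2548 to 4954 normalized counts in the HFr animals and 3797 to 5507 in the chow animals (two-sided exact permutation test, p = 0.0714), and most of this sum was CYP2E1. Periportal markers summed to 1603 to 3356 in the HFr animals and 2256 to 2960 in the chow animals (two-sided exact permutation test, p = 0.778). Of the 8 cholangiocyte markers, 5 had counts, KRT23 was at 0, and the sum was 5.998 to 27.8 on the HFr diet and 10.1 to 32.7 on chow. Of the 8 endothelial markers tested, 5 were higher and 3 lower. Only KDR, 1 of these 8, had an unadjusted p under 0.05, as did 4.29% of all tested transcripts. Its log2 fold change was 0.57 (SE 0.19, unadjusted p = 0.0109, adjusted p = 0.9996 by edgeR), with 5 of 5 HFr animals above the chow mean. All 6 macrophage markers tested had a log2 fold change above zero, from 0.0024 to 0.52, with 0 at an unadjusted p under 0.05 by edgeR. The part of zonal or other cells in the transporter values was not tested.

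Other transporters of the same membranes were counted from lists written from general knowledge. Of the 10 other uptake carriers, 6 were tested, with 2 higher and 4 lower on the HFr diet, 0 with an unadjusted p under 0.05 from edgeR and a median log2 fold change of -0.04. SLCO1A2, a relative of SLCO1B1 on chromosome 11, had a log2 fold change of -1.63 (SE 0.81, unadjusted p = 0.0647 by edgeR), from 0.377 to 8.70 normalized counts in the HFr animals and from 0.686 to 26.3 in the chow animals. Its value was -0.91 without chow replicate 4 and -3.00 without HFr replicate 5. SLCO2A1, the prostaglandin carrier, had 72.7 normalized counts in HFr replicate 2 and 1.19 to 10.6 in the other HFr animals. Its log2 fold change was 1.26 (SE 0.87) and turned to -0.73 without HFr replicate 2.

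Of the 7 other canalicular transporters, 6 were tested, with 3 higher and 3 lower, 0 under an unadjusted p of 0.05 from edgeR and a median log2 fold change of 0.04. ABCG5 and ABCG8, which together form the sterol exporter, had log2 fold changes of 0.24 (SE 0.35) and 0.35 (SE 0.30). With 1 animal left out, that of ABCG5 ran from 0.07 without HFr replicate 1 to 0.60 without chow replicate 3, and that of ABCG8 from 0.17 without chow replicate 5 to 0.60 without chow replicate 2. The flippase gene ATP8B1, with a value of -0.12 (SE 0.22), and its partner TMEM30A, with -0.01 (SE 0.18), both differed by less than their standard error. ABCG2 was not tested, at 2 to 27 estimated counts per animal.

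Of the 6 other basolateral exporters, 4 were tested, 3 higher and 1 lower. For 1 of them the unadjusted p of edgeR was under 0.05, as it was for 4.29% of all tested transcripts. ABCC5, a pump for cyclic nucleotides, had 42.2, 36.3, 31.9, 34.4 and 35.4 normalized counts in HFr replicates 1 to 5 and 37.9, 21.5, 16.9, 30.3 and 22.1 in chow replicates 1 to 5. Chow replicate 1 lay inside the HFr range and the other 4 chow animals lay below it. Its log2 fold change was 0.49 (SE 0.21, unadjusted p = 0.0357, adjusted p = 0.9996 by edgeR). The two-sided exact permutation test of the log2 normalized counts gave p = 0.0556. Its unadjusted p was under 0.05 in 14 of 21 alternatives, all refits of these same animals and so no independent check. ABCC4, which like ABCC3 exports bile acids to blood, had 13.5 ± 2.99 and 18.3 ± 4.49 normalized counts (SD, n = 5 each) in the HFr and chow groups, or on the log2 scale -0.44 (SE 0.21, unadjusted p = 0.0580 by edgeR). The organic solute transporter genes SLC51A and SLC51B had at most 1 and 4 estimated counts in any animal and were not tested.

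Of the 12 listed regulators of these transporters, 8 were tested, with 4 higher and 4 lower, 0 under an unadjusted p of 0.05 from edgeR and a median log2 fold change of 0.01. NR1H4, the bile acid receptor FXR that drives ABCB11, had 125 ± 22.5 normalized counts on the HFr diet and 150 ± 19.1 on chow (SD, n = 5 each), or on the log2 scale -0.27 (SE 0.18). Its target gene NR0B2, the repressor SHP, had 33.0 ± 16.6 and 26.7 ± 18.0 (SD, n = 5 each), a value of 0.29 (SE 0.44). The xenobiotic receptor gene NR1I2 differed by 0.56 (SE 0.39; 0.34 without HFr replicate 4 and 0.35 without chow replicate 1) and the hepatocyte factor HNF4A by -0.15 (SE 0.21).

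Of the 11 genes for anchoring and trafficking of membrane transporters, 9 were tested, 3 higher and 6 lower, again with 0 under an unadjusted p of 0.05 from edgeR and a median of -0.07. PDZK1, a scaffold that binds transporter tails, had 83.3 ± 15.9 normalized counts on the HFr diet and 66.0 ± 4.01 on chow (SD, n = 5 each), or on the log2 scale 0.34 (SE 0.17, unadjusted p = 0.0641 by edgeR). EZR, which encodes the membrane linker ezrin, differed by -0.52 (SE 0.35), and by -0.08 without chow replicate 3. Over all 5 lists 33 genes were tested, with 15 higher and 18 lower on the log2 scale. Of these 33, 1 (ABCC5) had an unadjusted p under 0.05 from edgeR, against 4.29% of all tested transcripts.

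**Figure D4:**
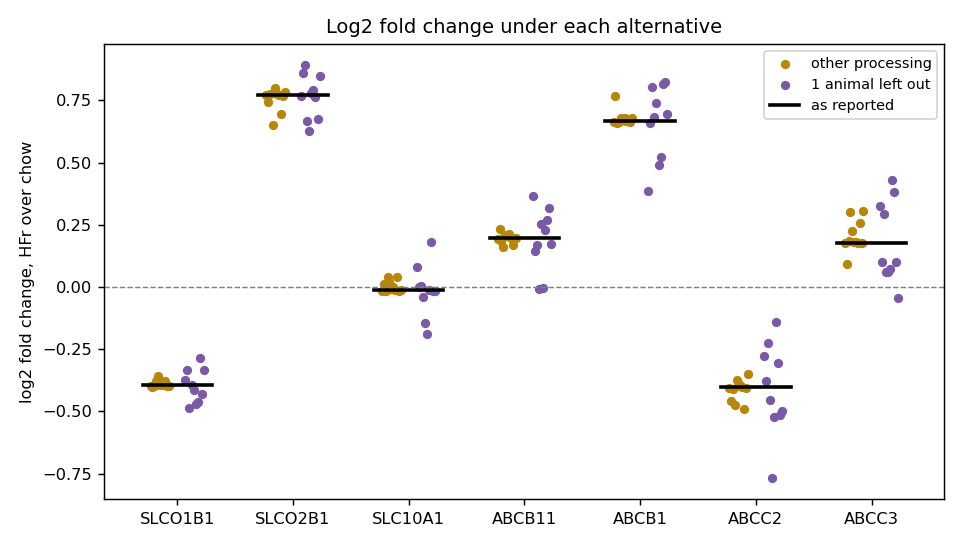
Log2 fold change of HFr over chow for each of the 7 transporters under every alternative, with other processing in gold, fits without 1 animal in purple and the reported value as a black line. SLCO1B1 (-0.48 to -0.29) and ABCC2 (-0.77 to -0.14) stay below zero, SLCO2B1 (0.63 to 0.89) and ABCB1 (0.39 to 0.82) stay above it, and SLC10A1, ABCB11 and ABCC3 cross it.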

How the data were processed

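The authors aligned paired-end reads of polyadenylated RNA to ChlSab1.1 (CASAVA 1.8, FastQC, STAR 2.5.3a and Partek per the submitters' processing notes) and estimated reads per Ensembl transcript by expectation-maximization. The deposited estimated counts are not normalized. The deposited normalized signal was scaled by the authors with TMM and was used for 1 alternative only. Of 16124 transcripts with reads, the estimated counts were 96.0% whole numbers. Coordinates are those of the deposited table, with the listed stop excluded.

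Counts were rounded, filtered with filterByExpr (minimum count 10, minimum total 15) and compared between diets with edgeR 4.0.16 (quasi-likelihood, TMM, diet as the only term), with Benjamini-Hochberg adjustment over 7948 transcripts. The authors used a two-sample test, run here as an alternative beside limma 3.58.1 and DESeq2 1.42.0 in R 4.3.3. Each diet has 5 animals. Exact permutation tests used log2 normalized counts (pseudocount 1) and the 252 assignments of 5 of 10 animals; marker sums were tested without a log. The procedure was tested on simulated data.

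Named genes are the transporters, genes of the 5 related transporter lists with an unadjusted p under 0.05 (or the 2 smallest p-values per list) and the 2 most similar transcripts per transporter. TMEM30A, ATP8B1, NR0B2, HNF4A, ACTA2, DCN, KDR, the pericentral markers and untested genes were added as context. The members and lists were chosen with earlier results of these data known. One listed gene is not reported here. The lists hold genes of uptake, canalicular and basolateral transport, regulation, anchoring and markers of 8 cell types, of which endothelial, macrophage and lymphocyte sums overlapped between diets (149 to 228, 294 to 460 and 22.4 to 43.7 normalized counts over all animals).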

Additional observations from a re-analysis of the deposited data

Results flagged for a closer look

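Of 38 groups of 5 animals examined, 2 held an animal whose gap to the nearest other exceeded 0.71 of the whole range (Dixon's 95% criterion), and chance flags about 1 in 20 groups. HFr replicate 2 had 72.7 normalized counts of SLCO2A1, the prostaglandin carrier, and the next HFr animal had 10.6. HFr replicate 5 had 8.70 normalized counts of SLCO1A2, an organic anion carrier, and the next HFr animal had 2.42. Without HFr replicate 5 the log2 fold change of SLCO1A2 was -3.00, with an unadjusted p of 0.00428 from edgeR, against -1.63 with all animals and -0.91 (unadjusted p = 0.266 from edgeR) without chow replicate 4. None of the 7 transporters held such an animal in either diet.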

How the results depend on the processing

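Under 11 alternative processing choices and with each animal left out, no transporter of the 7 reached an adjusted p under 0.05. At an unadjusted p under 0.05, DESeq2 and the filter on any count above 0 each gave 2 of the 7 (SLCO2B1 with SLCO1B1, and SLCO2B1 with ABCB1), at least 10 counts in every animal gave 0, and leaving out 1 animal gave 1 to 2. Over all transcripts, library size alone gave 123 and 1 adjusted call (CAPSL), the filter on any count gave 756, DESeq2 gave 2 adjusted calls (CPE and RRM2), and leaving out 1 animal gave 260 to 408. These 3 genes were chosen after their values were seen. For the 5 related lists the number under 0.05 was 2 with library size alone, DESeq2, the study's two-sample test, the filter on any count and the replicate block, and 0 to 2 with 1 animal left out. The cause was not tested.

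SLC10A1 changed sign to 0.0138 with library size alone, 0.0405 with limma, 0.0211 with the study's test, 0.00102 with at least 10 counts in every animal and 0.0415 with the replicate block, and ran from -0.19 to 0.18 with 1 animal left out. Its difference in linear normalized counts was -1.41 where that on the log2 scale was 0.0405. With 1 animal left out ABCB11 ran from -0.00897 to 0.36, ABCC3 from -0.0442 to 0.43 and SLCO2A1 from -0.73 to 1.79. Same-numbered animals of the 2 diets did not deviate together (correlations -0.29 to 0.10, 0 of 5 highest with their own number), so they share a number only; the replicate block gave 271 transcripts and 1 of 7 transporters under 0.05. SLCO2B1 rests on 9 to 81 counts per animal.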
